A study of Mus musculus with 6 samples.

Results

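The 36 genes described here encode the enzymes that remove hydrogen peroxide and superoxide in mouse cells, the glutathione and thioredoxin systems that keep those enzymes reduced, and targets of the transcription factor NRF2, together with NRF2 itself (Nfe2l2) and its repressor KEAP1 (Keap1). They were chosen by name, with earlier results of these data known. All 36 were found by symbol among the 34685 genes that carry normalized values. All 36 also passed the filter on low counts, which kept 15374 genes.

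RNA was sequenced from liver tumors that HCA-1 cells, a murine hepatocellular carcinoma (HCC) line, had formed in male C3H mice (C3H/HeNCrNarl in the study's methods) aged 6 to 8 weeks at implantation. The 3 control tumors, numbered 5, 6 and 7, came from untreated mice. The 3 GOx-DOX-LGP tumors, numbered 1, 2 and 5, came from mice that had received nanogels loaded with glucose oxidase (GOx) and doxorubicin (DOX) into a vein. The labels place the doses on days 18, 19 and 20 and the expression profiling on day 17, after 3 h of circulation, so the interval between dose and sampling is uncertain. The study's methods give a harvest on the day after the last dose for tumors used in quantitative PCR, and name no day for the sequenced tumors. All tumors derive from 1 cell line. The libraries include none from mice given GOx alone, DOX alone or an empty nanogel, so the effects of these components cannot be told apart. The labels number the libraries without stating that each is a separate animal, and p-values measure the spread between these libraries only.

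GOx oxidizes glucose and releases hydrogen peroxide, so the comparison asks how genes that handle peroxide stood in the treated tumors. Under basal conditions KEAP1 presents NRF2 for degradation. Oxidants and electrophiles modify cysteines of KEAP1, NRF2 accumulates, and with a small MAF partner it binds antioxidant response elements near genes for glutathione synthesis, thioredoxin recycling, heme breakdown and quinone reduction. Catalase in peroxisomes, glutathione peroxidases and peroxiredoxins then break down the peroxide. Liver parenchyma is known for high levels of catalase, glutathione peroxidase 1 and the glutathione-synthesizing enzymes.

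The letters TGACNNNGC, the core of the antioxidant response element, were searched on both strands in the 250 bases before each start site given in the RefSeq promoter table (GRCm38.p6). Of the 36 genes, 30 had an entry, and 6 of those 30 (20%) held the letters, namely Nfe2l2, Gclm, Abcc4, Txnrd1, Sod1 and Prdx1. Among all genes in the table the share was 11.5% of 27025. A match is a description of these letters and not evidence of binding. The window of Nfe2l2 overlaps an exon of E030042O20Rik and is not shown, nor is a further match in an intron of Abcc4. The windows of the other 5 genes are shown because their mRNA levels are described below, each with its place in the GENCODE M21 annotation, with the match in capitals and up to 30 bases on each side, written 5′ to 3′ on the strand of the gene. Where the match lies on the other strand, the capitals read GCNNNGTCA.
Gclm, chr3:122245393-122245461, + strand, intergenic: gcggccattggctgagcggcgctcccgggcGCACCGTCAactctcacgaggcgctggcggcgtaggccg
Txnrd1, chr10:82859084-82859152, + strand, within an intron of Txnrd1 before an internal start site: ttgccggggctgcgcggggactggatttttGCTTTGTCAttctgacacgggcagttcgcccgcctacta
Sod1, chr16:90220676-90220744, + strand, intergenic: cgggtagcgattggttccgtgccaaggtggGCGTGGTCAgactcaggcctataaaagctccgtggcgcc
Prdx1, chr4:116685436-116685504, + strand, intergenic: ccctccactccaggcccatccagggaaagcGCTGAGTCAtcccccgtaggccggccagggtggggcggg
Abcc4, chr14:118706220-118706274, - strand, intergenic: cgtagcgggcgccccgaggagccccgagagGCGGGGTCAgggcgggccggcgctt
The 5 genes did not share a direction. In the fit of all 6 libraries Gclm, Txnrd1, Sod1 and Prdx1 had negative log2 fold changes and Abcc4 a positive one. With control 5 as the only control, Gclm, Sod1 and Prdx1 had 0.29, 0.48 and 0.24. Txnrd1 and Abcc4 then had -0.41 and -0.43.

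The libraries held between 15529940 and 18401178 counts. Levels are given as CPM, counts scaled to the library total, which was in turn scaled between libraries by TMM with factors from 0.569 in control 7 to 1.24 in control 5. Controls 6 and 7 stood apart from the other 4 libraries. The 17 hepatocyte markers kept by the filter summed to 150067 CPM in control 6 and 236185 CPM in control 7. The same sum was 791 CPM in control 5 and lay between 1710 and 4208 CPM in the GOx-DOX-LGP tumors. Alb, the gene of serum albumin, alone stood at 73804 and 128240 CPM in controls 6 and 7 and at 353 CPM in control 5. The erythroid markers also moved with this split, at a sum of 409 and 429 CPM in controls 6 and 7 and between 13.2 and 42.4 CPM elsewhere, and their Hbb-bs, a beta-globin gene, lay at 156 and 128 CPM against 5.75 to 21.1 CPM. The macrophage markers summed to between 752 and 1098 CPM in the controls and between 1043 and 2281 CPM in the GOx-DOX-LGP tumors, and Adgre1, which encodes F4/80, ranged from 28.9 to 44.0 CPM and from 27.8 to 106 CPM. At an unadjusted p under 0.05, 3 of 14 macrophage markers were higher (Cd68, Cd14 and Msr1), which is 21.4%, beside 2.87% of all genes. Another 3 were lower (21.4%, beside 14.6% of all genes), namely Clec4f, Vsig4 and Timd4, markers of resident liver macrophages. The lower ones followed the split, with Clec4f at 96.8 and 101 CPM in controls 6 and 7 and between 3.33 and 12.5 CPM elsewhere. The endothelial markers summed to 443 and 499 CPM in controls 6 and 7 and between 122 and 173 CPM elsewhere. Without overlap, 6 of 9 were lower in the GOx-DOX-LGP tumors, beside 8.31% of all genes. The T cell markers summed to 119, 76.0 and 44.3 CPM in controls 5, 6 and 7 and to 157, 170.4 and 243 CPM in the GOx-DOX-LGP tumors. Of these 11 markers, 9 were higher without overlap (beside 8.87% of all genes) and DESeq2 called 5 higher (beside 0.994%). The part of these cells in the values below was not tested. No marker of these lists was at 0 in all libraries. Krt8, a keratin of liver epithelium and HCC cells, stood at 433, 347 and 313 CPM in controls 5, 6 and 7. The GOx-DOX-LGP tumors had 495, 506 and 540.5 CPM, without overlap, at a log2 fold change of 0.50 ± 0.28 (SE; edgeR adjusted p = 0.384). Of the 6 liver tumor markers, 4 had positive and 2 negative log2 fold changes. The negative ones were Afp and Gpc3, both at an unadjusted p under 0.05 by edgeR (33.3%, beside 14.6% of all genes). Afp, an HCC marker that did not exceed 13.2 CPM, had -1.26 ± 0.50 (SE; edgeR adjusted p = 0.274). Gpc3, which did not exceed 2.29 CPM, had -1.06 ± 0.40 (SE; edgeR adjusted p = 0.264) and was lower without overlap. In whole tumors, fewer cells of a type and less RNA per cell cannot be told apart.

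With all 6 libraries, most of the 36 genes had lower levels in the GOx-DOX-LGP tumors, with the most negative log2 fold changes in Cat, Msra, Gclm and Gclc, but none passed an adjusted p under 0.05. The edgeR quasi-likelihood test called 0 of 36 genes, and 0% of the 15374 genes kept. The lowest adjusted p among the 36 was 0.247. An unadjusted p under 0.05 was found for 11 of 36 genes (30.6%), beside 17.5% of all genes. Of these, 10 were lower in the GOx-DOX-LGP tumors (27.8%, beside 14.6% of all genes), namely Gclc, Gclm, Gss, Osgin1, Sod1, Sod2, Cat, Gpx1, Msra and Msrb1. The other gene, Sod3, was higher (2.78%, beside 2.87%). DESeq2 called 6 of 36 genes at an adjusted p under 0.05 (16.7%, beside 10.5% of all genes). It called 0 higher (beside 0.994%) and 6 lower (beside 9.54%), namely Cat, Gclc, Gclm, Msra, Msrb1 and Sod1, while Slc7a11 received no adjusted p from that tool. The median log2 fold change of the 36 genes was -0.74, with 27 negative and 9 positive values, while that of all genes was 0.02.

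These counts depended on which controls entered the fit. Without control 5, 26 of 36 genes had an adjusted p under 0.05 by edgeR (72.2%, beside 47.7% of all genes), 21 of them lower (58.3%, beside 25.5%) and 5 higher (13.9%, beside 22.2%). The 5 higher genes were Slc7a11, Abcc4, Sod3, Gpx7 and Gpx8. With control 5 as the only control, which assumes that it varies as the GOx-DOX-LGP tumors do, the count was 0 (0% of all genes), and 5 genes had an unadjusted p under 0.05 (13.9%, beside 5.47% of all genes), all with higher levels in the GOx-DOX-LGP tumors. In that fit 28 of 36 log2 fold changes were positive, 27 had the opposite sign from the fit of all 6 libraries, and 31 were smaller than 0.5 in size. Control 5 was below both other controls for 28 genes and above both for 6. It lay nearer to the median of the GOx-DOX-LGP tumors than to either other control for 31 of 36 genes (86.1%), as it did for 76.1% of all genes.

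**Figure D1:**
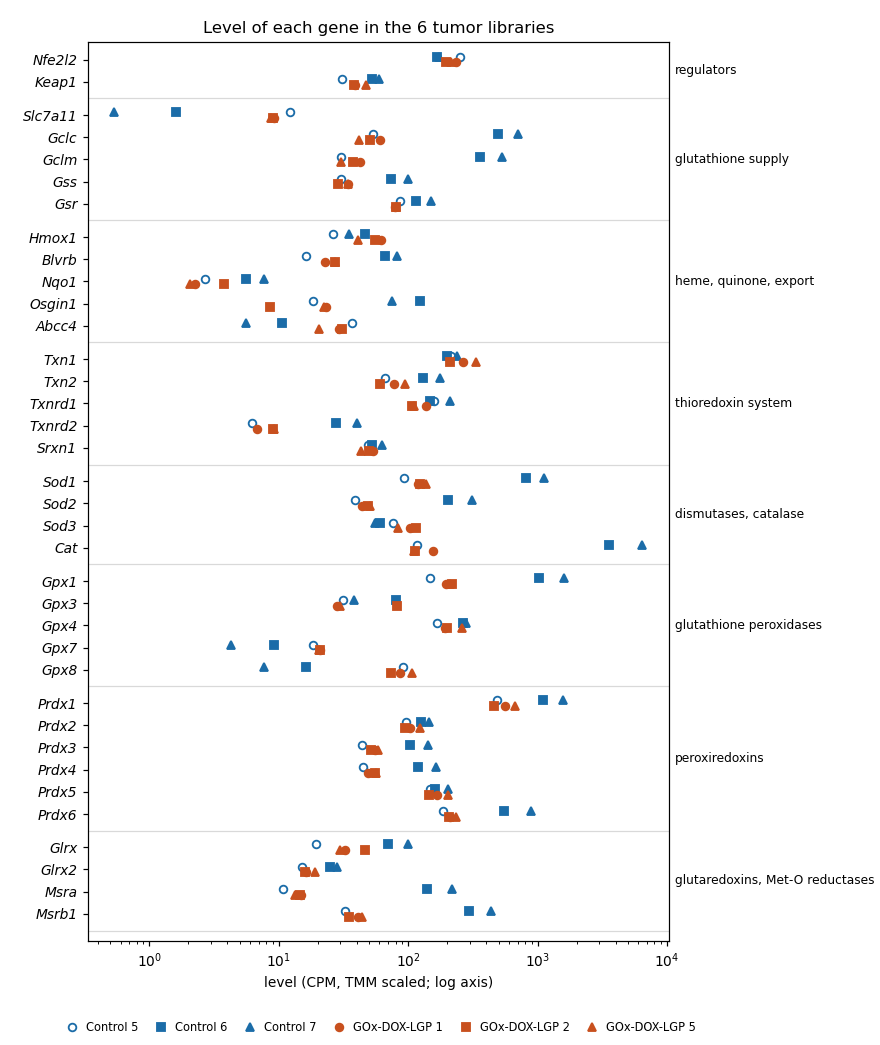
Level of each of the 36 genes in CPM (horizontal log axis) in the 6 libraries, with controls in blue, GOx-DOX-LGP tumors in orange, 1 symbol per library and the genes grouped by role. For 31 of 36 genes the open circle of control 5 is nearer to the median of the GOx-DOX-LGP tumors than to either control 6 or control 7, and the points of catalase (Cat) spread most widely, from 111 to 6452 CPM.

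The spread within the groups was unequal. The SD of log2 levels had a median of 0.94 over the 36 genes in the controls and 0.19 in the GOx-DOX-LGP tumors. It was larger in the controls for 32 genes (88.9%), beside 79.1% of all genes, for which the medians were 0.56 and 0.24. The controls ranged over up to 55.0-fold for a single gene, Cat, and the GOx-DOX-LGP tumors over up to 2.92-fold, for Gpx3.

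**Figure D2:**
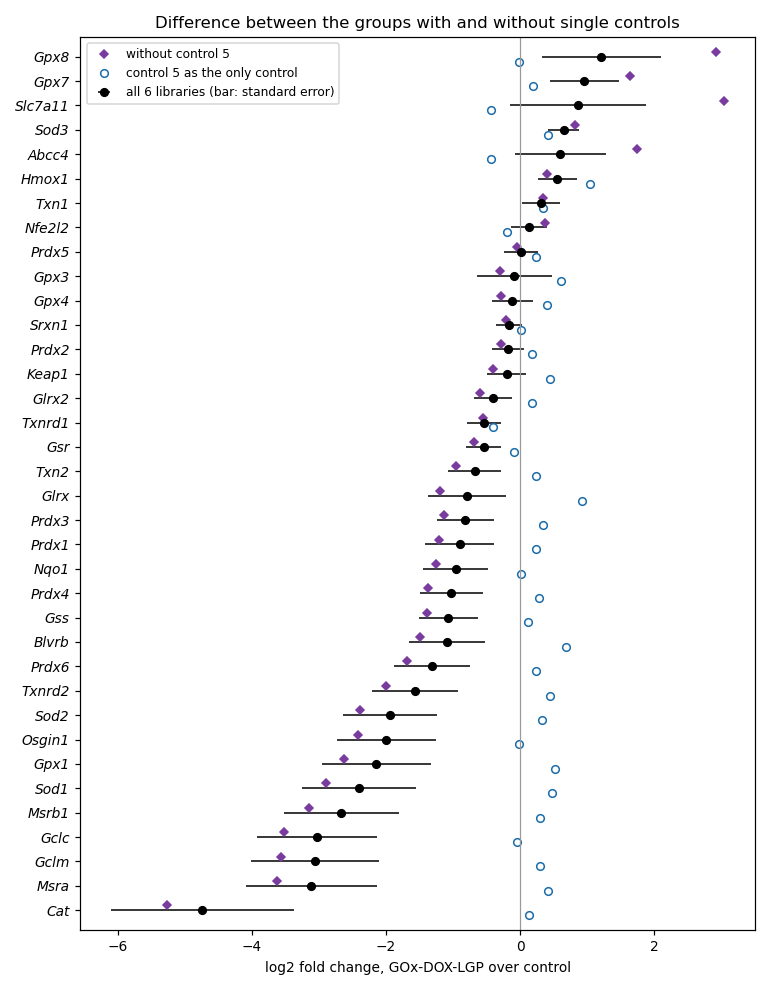
Log2 fold change of each gene, GOx-DOX-LGP over control (horizontal axis), from the fit of all 6 libraries (black, bars are the standard error), without control 5 (purple diamonds) and with control 5 as the only control (open blue circles). Diamonds of Cat, Gclc, Gclm and Msra lie between -5.27 and -3.52, whereas their open circles lie between -0.05 and 0.41.

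The regulators were close to level between the groups. Nfe2l2, which encodes NRF2, stood at 249.6 CPM in control 5, 166 in control 6 and 174 in control 7. GOx-DOX-LGP tumors 1, 2 and 5 had 233, 197 and 215 CPM. Every GOx-DOX-LGP tumor was above controls 6 and 7 and below control 5. The log2 fold change was 0.13 with a standard error of 0.27 (adjusted p = 0.782), and with control 5 as the only control it was -0.20. Keap1 stood at 30.8, 52.4 and 59.8 CPM in controls 5, 6 and 7 and at 38.6, 38.5 and 47.1 CPM in the GOx-DOX-LGP tumors. Its GOx-DOX-LGP values all lay between control 5 and control 6, with a log2 fold change of -0.20 ± 0.29 (SE; adjusted p = 0.688). This sign turned with library totals in place of TMM, at 0.45 and with no overlap between the groups, and 10.87% of the exonic bases of Keap1 overlap the antisense gene Gm16754 on the opposite strand, whose reads cannot be told apart unless strand was used in counting. NRF2 is regulated mainly at the protein level, which these counts do not measure.

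The genes of glutathione supply separated controls 6 and 7 from the other 4 libraries. Glutamate-cysteine ligase, the rate-limiting enzyme of glutathione synthesis, consists of a catalytic subunit (Gclc) and a modifier subunit (Gclm). Gclc stood at 53.4 CPM in control 5, 497 in control 6 and 702 in control 7, and at 61.0, 51.0 and 41.7 CPM in the GOx-DOX-LGP tumors. Gclm had a similar split, with 30.1, 356 and 529.8 CPM in the controls and 42.4, 37.2 and 30.1 CPM in the GOx-DOX-LGP tumors. For both subunits control 5 lay inside the range of the GOx-DOX-LGP tumors, while controls 6 and 7 were higher than every other library. The log2 fold changes were -3.03 ± 0.89 for Gclc and -3.06 ± 0.96 for Gclm (SE; edgeR adjusted p = 0.247 for both), which DESeq2 called with adjusted p of 0.0078 and 0.0122. Without control 5 they were -3.52 ± 0.27 and -3.57 ± 0.26, and with control 5 as the only control -0.05 ± 0.26 and 0.29 ± 0.26. The ratio of the subunits moved far less than their levels. Per kilobase of exon, Gclc made up 74.8%, 70.0% and 68.9% of the sum of both in controls 5, 6 and 7 and between 69.6% and 70.6% in the GOx-DOX-LGP tumors.

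The other genes of this group are Gss, which encodes glutathione synthetase, Gsr, which encodes the reductase that recycles oxidized glutathione, and Slc7a11, which encodes the cystine transporter xCT. Gss stood at 30.2, 73.5 and 101 CPM in controls 5, 6 and 7 and at 34.0, 28.7 and 34.4 CPM in the GOx-DOX-LGP tumors, again with control 5 inside the range of the latter. Its log2 fold change was -1.07 ± 0.44 (SE; adjusted p = 0.284), and 0.12 with control 5 as the only control. Gsr was more even, at 86.5, 115 and 150.2 CPM in the controls and 79.4, 80.9 and 81.1 CPM in the GOx-DOX-LGP tumors. This was 1 of the 4 genes of 36 (11.1%, beside 17.2% of all genes) whose groups did not overlap. Of these, Gsr and Txnrd1 were lower (beside 8.31% of all genes) and Sod3 and Gpx7 higher (beside 8.87%), and for Gsr the 3 GOx-DOX-LGP tumors differed by 1.02-fold at most. The log2 fold change of Gsr was -0.54 ± 0.26 (SE; adjusted p = 0.329). With library totals it was 0.08 and the groups overlapped, in a scaling that moved the median of all genes from 0.02 to 0.51.

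Slc7a11 had the reverse order. It stood at 12.3 CPM in control 5 (281 counts), 1.61 in control 6 (19 counts) and 0.538 in control 7 (5 counts), and at 9.24, 8.97 and 8.74 CPM in the GOx-DOX-LGP tumors. Control 5 was the highest of the 6 libraries and controls 6 and 7 were the lowest. Its log2 fold change was 0.87 ± 1.01 (SE; adjusted p = 0.628). It was 3.05 ± 0.46 without control 5 (adjusted p = 0.0019) and -0.44 ± 0.26 with control 5 as the only control, so its direction depended on the control.

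Among the genes of heme breakdown, quinone reduction and export, Hmox1 had a positive log2 fold change in every fit. Heme oxygenase 1, its product, splits heme into biliverdin, iron and carbon monoxide, and Hmox1 is a classical NRF2 target. It stood at 26.1, 46.8 and 35.2 CPM in controls 5, 6 and 7 and at 62.0, 55.7 and 41.2 CPM in the GOx-DOX-LGP tumors. Tumors 1 and 2 were above all controls, whereas tumor 5 was below control 6. The same overlap was seen with DESeq2 size factors, whereas with upper-quartile scaling or library totals all 3 GOx-DOX-LGP tumors were above all controls (unadjusted p = 0.0313 and 0.0138, adjusted p = 0.287 and 0.407). The group means were 36.02 ± 10.4 and 52.9 ± 10.6 CPM (SD, n = 3). This gave a log2 fold change of 0.56 ± 0.29 (SE; adjusted p = 0.357), which across all fits ranged from 0.40 without control 5 to 1.15 with library totals. With control 5 as the only control it was 1.04 ± 0.29 (unadjusted p = 0.0104, adjusted p = 0.885), the highest value of the 36 genes in that fit. With the hepatocyte score as a covariate it was 0.87 ± 0.26 (unadjusted p = 0.0113, adjusted p = 0.578). Macrophages are also rich in Hmox1. The macrophage sum was highest in GOx-DOX-LGP tumor 2, at 2281 CPM, and was 1043 CPM in tumor 1, where Hmox1 was highest. The single markers differed in tumor 1. Cd68, Cd14, Msr1 and C1qb were above every control there, Adgre1, Csf1r and Mrc1 were below every control, and the others lay within the control range. The part of macrophages in the Hmox1 level was not tested.

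Biliverdin reductase B, encoded by Blvrb, acts on the products of heme breakdown and on flavins. Blvrb stood at 16.2, 66.7 and 81.4 CPM in controls 5, 6 and 7 and at 22.9, 27.1 and 27.2 CPM in the GOx-DOX-LGP tumors, so that every GOx-DOX-LGP value lay between control 5 and control 6. Its log2 fold change was -1.09 ± 0.56 (SE; adjusted p = 0.355), but 0.68 ± 0.24 with control 5 as the only control. Nqo1, which encodes a quinone reductase and is among the genes most used to read NRF2 activity, was low throughout, at 2.72, 5.60 and 7.64 CPM in the controls and 2.27, 3.77 and 2.08 CPM in the GOx-DOX-LGP tumors. Its log2 fold change was -0.96 ± 0.48 (SE; adjusted p = 0.347) and 0.01 ± 0.51 with control 5 as the only control, from 40 to 77 counts per library.

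Osgin1, an oxidative stress-induced growth inhibitor, stood at 18.5, 123 and 75.3 CPM in the controls and at 23.4, 8.57 and 22.3 CPM in the GOx-DOX-LGP tumors. Control 5 lay within the GOx-DOX-LGP range. For Osgin1 the log2 fold change was -1.996 ± 0.74 (SE; adjusted p = 0.257), and -0.02 ± 0.54 with control 5 as the only control. Abcc4, which encodes the organic anion exporter MRP4, went the other way, with 36.6, 10.7 and 5.60 CPM in the controls and 29.5, 30.8 and 20.4 CPM in the GOx-DOX-LGP tumors. As with Slc7a11, control 5 was the highest library, the log2 fold change was 0.60 ± 0.68 (SE; adjusted p = 0.616), and it was 1.75 ± 0.34 without control 5 and -0.43 ± 0.28 with control 5 as the only control.

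**Figure D3:**
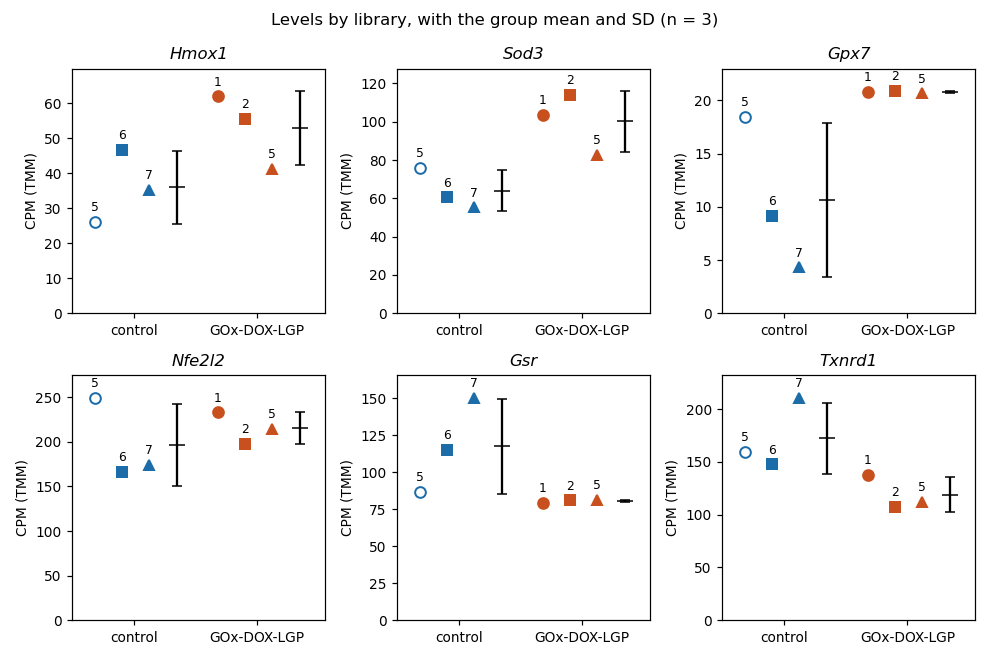
Levels in CPM of 6 genes in each library, marked with its number, with the mean and SD (n = 3) of each group as black bars. Sod3 and Gpx7 are higher and Gsr and Txnrd1 lower in every GOx-DOX-LGP tumor than in every control at these TMM-scaled levels, whereas for Hmox1 tumor 5 is below control 6 and for Nfe2l2 control 5 is the highest library.

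In the thioredoxin system the cytosolic genes were more even between libraries than the mitochondrial ones. Txn1, the cytosolic thioredoxin, stood at 216, 201 and 239 CPM in the controls and at 266, 212 and 336 CPM in the GOx-DOX-LGP tumors, with overlapping groups and a log2 fold change of 0.31 ± 0.28 (SE; adjusted p = 0.540). This was positive in every fit, between 0.17 and 0.85. Txnrd1, the cytosolic selenoprotein that reduces thioredoxin, stood at 159, 148 and 211 CPM in the controls and 138, 107 and 112 CPM in the GOx-DOX-LGP tumors. No GOx-DOX-LGP value reached the lowest control with TMM or DESeq2 size factors, but the groups overlapped with upper-quartile scaling or library totals. The log2 fold change was -0.54 ± 0.25 (SE; adjusted p = 0.324). It was -0.56 without control 5 and -0.41 with control 5 as the only control, but 0.03 with library totals, the scaling in which the median of all genes was 0.51. Srxn1, which encodes sulfiredoxin and repairs overoxidized peroxiredoxins, ranged between 48.7 and 62.8 CPM in the controls and between 43.3 and 53.1 CPM in the GOx-DOX-LGP tumors, with a log2 fold change of -0.16 ± 0.20 (SE).

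The mitochondrial forms followed the split between controls. Txn2 stood at 66.6, 129 and 177 CPM in controls 5, 6 and 7 and between 60.7 and 94.5 CPM in the GOx-DOX-LGP tumors. Txnrd2 stood at 6.19, 27.9 and 40.0 CPM and at 6.77, 8.97 and 9.21 CPM, with a log2 fold change of -1.57 ± 0.65 (SE; adjusted p = 0.286), or 0.44 ± 0.33 with control 5 as the only control. Per kilobase of exon, Txnrd2 made up 5.89% of both reductases in control 5, 23.3% and 23.4% in controls 6 and 7, and 7.34%, 11.9% and 11.7% in the GOx-DOX-LGP tumors. These shares do not depend on the scaling between libraries, though they do depend on the exon lengths used.

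Superoxide dismutases turn superoxide into hydrogen peroxide, and catalase breaks that peroxide down. Cat, the catalase gene, had the largest difference of all 36 genes in the fit of all 6 libraries. It stood at 117 CPM in control 5, 3558 in control 6 and 6452 in control 7, and at 155, 113 and 111 CPM in the GOx-DOX-LGP tumors. Control 5 fell between GOx-DOX-LGP tumors 1 and 2, and controls 6 and 7 were far above both. With all 6 libraries the log2 fold change was -4.74 ± 1.36 (SE; edgeR adjusted p = 0.247, DESeq2 adjusted p = 0.0011). It was -5.27 ± 0.41 without control 5 and 0.12 ± 0.26 with control 5 as the only control. With the hepatocyte score as a covariate it was -1.10 ± 0.27 (unadjusted p = 0.0037, adjusted p = 0.435).

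Sod1, the cytosolic copper-zinc enzyme, stood at 92.2, 811 and 1123 CPM in controls 5, 6 and 7 and at 120.0, 124 and 138 CPM in the GOx-DOX-LGP tumors. Sod2, the mitochondrial manganese enzyme, stood at 38.7, 202 and 309 CPM and at 43.6, 48.7 and 50.9 CPM. Both were higher in every GOx-DOX-LGP tumor than in control 5 and lower than in controls 6 and 7. Their log2 fold changes were -2.41 ± 0.85 and -1.94 ± 0.70 (SE; adjusted p = 0.249 and 0.252), and 0.48 ± 0.19 and 0.32 ± 0.20 with control 5 as the only control. For Sod2, 21.04% of its 50-base stretches also occur in other genes, so its count is less certain.

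Sod3, the secreted dismutase of the extracellular matrix, went against the other dismutases. It stood at 75.9, 60.6 and 55.3 CPM in controls 5, 6 and 7 and at 104, 114 and 82.8 CPM in the GOx-DOX-LGP tumors. All 3 GOx-DOX-LGP tumors were above all 3 controls, whether scaled by TMM, DESeq2 size factors, library totals or the upper quartile. The means were 63.9 ± 10.7 and 100.2 ± 16.0 CPM (SD, n = 3). This gave a log2 fold change of 0.65 ± 0.23 (SE; unadjusted p = 0.0305, adjusted p = 0.251), 0.82 ± 0.20 without control 5 (adjusted p = 0.0136), and 0.42 ± 0.24 with control 5 as the only control. The fibroblast markers, whose cells are a known source of matrix proteins, summed to 5890, 1823 and 1478 CPM in controls 5, 6 and 7 and to 4728, 7089 and 2302 CPM in the GOx-DOX-LGP tumors. Most of each sum came from the collagen genes Col1a1, Col1a2 and Col3a1. In GOx-DOX-LGP tumor 5, Thy1 and Fap of this list were above control 5, and the other listed markers were below it. The part of fibroblasts in the Sod3 level was not tested. Per kilobase of exon, Sod3 made up 42.9% of the dismutases in control 5, 6.73% and 4.50% in controls 6 and 7, and 44.5%, 45.8% and 35.7% in the GOx-DOX-LGP tumors.

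**Figure D4:**
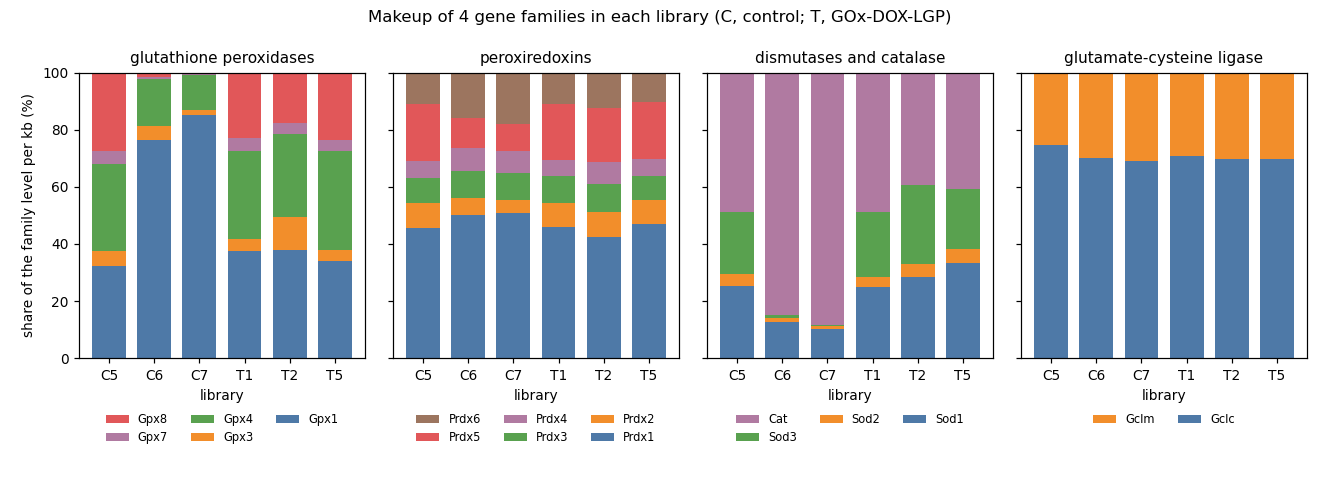
Share of each gene (%) in the summed level per kilobase of exon of its family, in each library, for glutathione peroxidases, peroxiredoxins, dismutases with catalase, and glutamate-cysteine ligase. Gpx1 takes 76.4% and 85.1% of the glutathione peroxidases in controls 6 and 7 and between 32.2% and 37.9% in the other 4 libraries, whereas the 2 ligase subunits keep similar shares in all 6.

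Glutathione peroxidases reduce peroxides with glutathione. Gpx1, the cytosolic selenoenzyme, stood at 147, 1033 and 1591 CPM in controls 5, 6 and 7 and at 196, 219 and 211 CPM in the GOx-DOX-LGP tumors. As with Sod1, each GOx-DOX-LGP tumor lay above control 5 and below controls 6 and 7, and the log2 fold change of -2.15 ± 0.81 (SE; adjusted p = 0.263) became 0.52 ± 0.19 with control 5 as the only control. Gpx4, the enzyme that reduces lipid hydroperoxides and restrains ferroptosis, was even, at 167, 266 and 278 CPM in the controls and 193, 201 and 260 CPM in the GOx-DOX-LGP tumors. Its log2 fold change was -0.12 ± 0.31 (SE; adjusted p = 0.826), or 0.51 with library totals, where the groups did not overlap, and 34.74% of its 50-base stretches are shared with other genes, chiefly the pseudogene Gpx4-ps2. Gpx3, the secreted plasma form, was high in 1 library of each group, 79.9 CPM in control 6 and 82.5 CPM in GOx-DOX-LGP tumor 2, and between 28.3 and 38.1 CPM in the other 4.

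Gpx7 and Gpx8, which act in the endoplasmic reticulum in the folding of secreted proteins, had the opposite pattern from Gpx1. Gpx7 stood at 18.5, 9.16 and 4.30 CPM in controls 5, 6 and 7 and at 20.8, 20.9 and 20.7 CPM in the GOx-DOX-LGP tumors. All 3 GOx-DOX-LGP values were above all 3 controls in each of the 4 scalings, and nearly equal to each other. It had a log2 fold change of 0.96 ± 0.51 (SE; adjusted p = 0.363), 1.64 ± 0.33 without control 5 (adjusted p = 0.0064) and 0.18 ± 0.23 with control 5 as the only control. Gpx8 stood at 91.3, 16.3 and 7.75 CPM in the controls and at 86.8, 73.4 and 108 CPM in the GOx-DOX-LGP tumors, with log2 fold changes of 1.21 ± 0.88 in all 6 libraries (adjusted p = 0.470), 2.91 ± 0.36 without control 5 and -0.02 ± 0.25 with control 5 as the only control. Per kilobase of exon, Gpx8 made up 27.4% of the 5 glutathione peroxidases in control 5, 1.66% and 0.570% in controls 6 and 7, and between 17.5% and 23.7% in the GOx-DOX-LGP tumors.

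Peroxiredoxins are abundant thiol peroxidases that thioredoxin, or glutathione for Prdx6, recharges. Prdx1, the cytosolic form with the highest level per kilobase of the 6, stood at 483, 1100.5 and 1575 CPM in controls 5, 6 and 7 and at 561, 457 and 671 CPM in the GOx-DOX-LGP tumors. Control 5 lay within the GOx-DOX-LGP range, and the log2 fold change was -0.90 ± 0.51 (SE; adjusted p = 0.382), or 0.24 ± 0.26 with control 5 as the only control. Prdx6, which also has phospholipase activity, stood at 187, 552 and 883 CPM in the controls and 209, 208 and 235 CPM in the GOx-DOX-LGP tumors, with a log2 fold change of -1.31 ± 0.57 (SE; adjusted p = 0.2996). Prdx3 of mitochondria and Prdx4 of the endoplasmic reticulum had the same order of controls, with log2 fold changes of -0.82 and -1.03. Prdx2 and Prdx5 were even, at -0.18 and 0.01, although 19.12% of the exonic bases of Prdx5 overlap Trmt112 on the opposite strand. Prdx5, which acts in several compartments, held 19.8% of the peroxiredoxin level per kilobase in control 5, 10.5% and 9.28% in controls 6 and 7, and between 19.1% and 20.1% in the GOx-DOX-LGP tumors.

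Catalase, the glutathione peroxidases and the peroxiredoxins can be set side by side per kilobase as routes of peroxide removal, with mRNA and not enzyme activity as the quantity. Cat made up 45.1% of this sum in control 6 and 51.6% in control 7, but 6.31% in control 5 and 7.22%, 5.44% and 4.50% in the GOx-DOX-LGP tumors. Prdx1 was the largest single contributor in control 5, at 22.3%, and in GOx-DOX-LGP tumors 1 and 5, at 22.4% and 23.3%, and Gpx1 slightly exceeded it in tumor 2, at 19.0% against 18.8%. The summed level was 712 CPM per kilobase in control 5, 3020 and 4785 in controls 6 and 7, and between 797 and 946 in the GOx-DOX-LGP tumors. In the share of Cat and in the summed level, control 5 lay within the GOx-DOX-LGP range or just below it, and controls 6 and 7 lay above it.

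Glutaredoxins and methionine sulfoxide reductases repair oxidized protein residues. Msra and Msrb1, which reduce the S and R forms of methionine sulfoxide, were among the genes with the largest differences. Msra stood at 10.8, 141 and 220.0 CPM in controls 5, 6 and 7 and at 14.9, 14.6 and 13.3 CPM in the GOx-DOX-LGP tumors. Msrb1, a selenoprotein, stood at 32.8, 294 and 434 CPM and at 40.8, 34.8 and 44.3 CPM. In both genes control 5 was the lowest library and controls 6 and 7 the highest. Their log2 fold changes were -3.12 ± 0.98 and -2.67 ± 0.86 (SE; edgeR adjusted p = 0.247 for both, DESeq2 adjusted p = 0.0126 and 0.0226), and 0.41 ± 0.26 and 0.30 ± 0.22 with control 5 as the only control. Glrx, the cytosolic glutaredoxin, stood at 19.3, 70.2 and 101 CPM in the controls and at 32.7, 46.7 and 29.7 CPM in the GOx-DOX-LGP tumors. Every GOx-DOX-LGP value of Glrx was above control 5 and below the other controls, with a log2 fold change of -0.80 ± 0.58 (SE) that became 0.93 ± 0.32 with control 5 as the only control (unadjusted p = 0.0257, adjusted p = 0.885). Glrx2, the mitochondrial form, differed less, at -0.41 ± 0.28 (SE), or 0.23 with library totals, where the GOx-DOX-LGP tumors were above all controls.

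The 5 genes with an unadjusted p under 0.05 against control 5 alone were Hmox1, Glrx, Blvrb, Gpx1 and Sod1, with log2 fold changes of 1.04, 0.93, 0.68, 0.52 and 0.48. The hepatocyte score, the mean log2 CPM of the 17 markers, was 4.23 in control 5 and 6.82, 5.41 and 5.92 in the GOx-DOX-LGP tumors, beside 12.1 and 12.7 in controls 6 and 7. The GOx-DOX-LGP tumors thus held more hepatocyte transcript than control 5 as well. With the score as a covariate over all 6 libraries, 4 of 36 genes had an unadjusted p under 0.05 (11.1%, beside 6.96% of all genes), namely Cat, Gclc and Gclm with negative values and Hmox1 with a positive one, and 0 had an adjusted p under 0.05 (0% of all genes). The log2 fold changes of Glrx, Blvrb, Gpx1 and Sod1 in that fit were 0.42 ± 0.33, 0.16 ± 0.25, -0.20 ± 0.28 and -0.29 ± 0.26 (SE).

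Further genes of the same pathways were read from 4 lists. Of 39 other NRF2 targets kept by the filter, 1 was higher and 18 were lower at an unadjusted p under 0.05 (beside 2.87% and 14.6% of all genes), with a median log2 fold change of -1.34, which was 0.03 with control 5 as the only control. For 13 of the 18 lower genes, control 5 was not above every GOx-DOX-LGP tumor. The other lower genes, Me1, Aox1, Abcc2, Slc6a9 and Adh7, were below all controls. Without overlap, 5 of the 39 were thus lower and 3 higher (Pgd, Aldh3a1 and Fth1), beside 8.31% and 8.87% of all genes. Aox1 and Abcc2 had log2 fold changes of -1.71 ± 0.43 and -2.47 ± 0.63 (SE; adjusted p = 0.247 for both). The gene that was higher, Pgd of the pentose phosphate pathway, stood at 109.8, 73.2 and 70.7 CPM in controls 5, 6 and 7 and at 133, 142 and 150.2 CPM in the GOx-DOX-LGP tumors, without overlap, at 0.74 ± 0.25 (SE; unadjusted p = 0.025, adjusted p = 0.247). The most negative values were those of Gsta3 and Gstm3, glutathione transferases of families with close copies, whose counts are therefore uncertain. Gsta3 stood at 3.47, 1224 and 2317 CPM in controls 5, 6 and 7 and at 29.9, 7.30 and 11.0 CPM in the GOx-DOX-LGP tumors, a log2 fold change of -6.20 ± 2.03 (SE), and Gstm3 had -5.57 ± 1.97. The most positive values were 1.78 ± 0.79 for Aldh3a1, an aldehyde dehydrogenase with 24.5, 33.8 and 5.27 CPM in the controls and 37.3, 134 and 47.2 CPM in the GOx-DOX-LGP tumors, and 1.11 ± 0.69 for Mgst2, a microsomal glutathione transferase. The groups of Aldh3a1 did not overlap, with an adjusted p of 0.309. Of these named genes, none passed an adjusted p under 0.05 by edgeR.

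Genes that control NRF2, such as its partners and competitors, were centered near the median of all genes. Of 16 kept, 0 were higher and 1 was lower at an unadjusted p under 0.05 (6.25%, beside 14.6% of all genes), with a median log2 fold change of -0.02. That gene was Bach2, a repressor at antioxidant response elements in lymphocytes, at -2.06 ± 0.72 (SE), with 13.99 and 18.2 CPM in controls 6 and 7 but 2.76 CPM in control 5, inside the GOx-DOX-LGP range of 1.93 to 3.82 CPM. It was followed by Nfe2l3 at -0.67 ± 0.51, while Maff, a small MAF partner, had 0.90 ± 0.81 and Palb2, which binds KEAP1, 0.47 ± 0.54. Of 24 further genes of the thiol and selenium systems, 0 were higher and 4 lower at an unadjusted p under 0.05 (Sephs2, Selenop, Ccs and Msrb2), which is 16.7%, beside 14.6% of all genes, with a median of -0.50. In all 4, control 5 was not above every GOx-DOX-LGP tumor. Sephs2, which makes the selenium donor for selenoproteins, stood at 48.7, 1062 and 1641 CPM in controls 5, 6 and 7 and between 37.6 and 62.4 CPM in the GOx-DOX-LGP tumors, at -4.08 ± 1.19 (SE). Selenop, the liver-derived selenium carrier of plasma, had -3.87 ± 1.37 (SE), but its 160 CPM in control 5 was below the 222 to 528 CPM of the GOx-DOX-LGP tumors, and only controls 6 and 7, at 5802 and 8446 CPM, were above them. Slc3a2, the heavy chain that pairs with xCT, stood at 117, 90.8 and 75.2 CPM in controls 5, 6 and 7 and at 125, 153 and 134 CPM in the GOx-DOX-LGP tumors without overlap, at 0.54 ± 0.25 (SE; adjusted p = 0.317). Nxn, encoding nucleoredoxin, had 0.89 ± 0.60.

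Of 20 genes whose enzymes produce peroxide or superoxide, 1 was higher (5%, beside 2.87% of all genes) and 9 were lower (45%, beside 14.6%) at an unadjusted p under 0.05, with a median of -0.01. For 8 of the 9 lower genes, control 5 was not above every GOx-DOX-LGP tumor. Hao1, a peroxisomal hydroxyacid oxidase of liver, stood at 15.3, 292 and 574 CPM in controls 5, 6 and 7 and between 7.10 and 19.4 CPM in the GOx-DOX-LGP tumors. Cyba, a membrane subunit of the phagocyte NADPH oxidase, was the higher one, at 33.5, 25.4 and 15.5 CPM in the controls, while the GOx-DOX-LGP tumors had 35.4, 59.4 and 51.0 CPM, with a log2 fold change of 0.97 ± 0.35 (SE; adjusted p = 0.253). Of the 14 macrophage markers, 11 had positive and 3 negative log2 fold changes, with a median of 0.83, beside 0.02 over all genes. At an unadjusted p under 0.05, 3 were higher and 3 lower as given above, and the macrophage sums overlapped between the groups. The part of macrophages in the Cyba level was not tested. The most negative values were those of Uox, the urate oxidase of liver peroxisomes, at -6.49 ± 2.06 (SE), and Pipox, the peroxisomal sarcosine oxidase, at -6.19 ± 1.84. Uox stood at 5.70, 2773 and 4761 CPM in controls 5, 6 and 7 and between 15.5 and 39.8 CPM in the GOx-DOX-LGP tumors. The most positive values were those of Ncf1 and Ncf4, cytosolic subunits of the phagocyte NADPH oxidase, at 1.24 ± 0.54 and 1.12 ± 0.48 (SE; adjusted p = 0.303 and 0.299). Ncf1 stood at 34.6, 15.3 and 8.61 CPM in the controls and at 32.4, 58.8 and 47.0 CPM in the GOx-DOX-LGP tumors, where tumor 1 was below control 5. The 8 neutrophil markers summed to 21.4, 24.5 and 9.47 CPM in controls 5, 6 and 7. In the GOx-DOX-LGP tumors the sums were 21.6, 42.5 and 59.6 CPM. All 6 kept by the filter had positive log2 fold changes, from 0.03 for Cxcr2 to 2.26 for Mmp9, with a median of 1.67. Of all 15374 genes, 7862 had positive values. At an unadjusted p under 0.05, 2 of the 6 were higher, Mmp8 and Mmp9 (33.3%, beside 2.87% of all genes). S100a8 and S100a9 were high in tumor 5 alone, at 12.5 and 22.1 CPM, and Mmp9 mainly in tumor 2, at 15.2 CPM. The part of macrophages and neutrophils in the levels of these oxidase genes was not tested.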

How the data were processed

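The authors deposited raw counts per gene and normalized signal values, which are the same counts divided by 1 size factor per library (0.532 to 1.32). The study's methods name TopHat and HTSeq, while the labels' processing notes name Trimmomatic 0.38, HISAT2 2.1.0 and featureCounts 2.0.0. The genome build, annotation release and strand setting are not given in the sources used here.

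Raw counts were analysed in R 4.3.3 with edgeR 4.0.16 (filterByExpr, TMM, quasi-likelihood test of the 2 labelled groups without covariates, Benjamini-Hochberg adjustment over the 15374 genes kept, threshold 0.05). Levels per kilobase use exon-union lengths of GENCODE M21 (GRCm38). The signal values gave the gene symbols. Alternatives were DESeq2 1.42.0, other scalings, no filter, the hepatocyte score as a covariate, and leaving out libraries. The test was tested on simulated data with the same dispersion in both groups, a setting without the unequal spread of these libraries. Plots were made with matplotlib 3.10.9 under Python 3.11.15.

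The members and lists were chosen with earlier results of these data known. Values per library were due for members with an unadjusted p under 0.05 or no overlap between groups and for the largest difference and highest level per length of each role, and of other lists the 2 most positive and 2 most negative genes are named. Some values and names were added after values were seen, as was the choice of genes in the plots. These concern further members, Pgd, Fth1, Me1, Aox1, Abcc2, Slc6a9, Adh7, Cyba, Ccs, Msrb2 and Hao1. The named markers of macrophages other than Adgre1, and of fibroblasts, neutrophils and liver tumors, were added in the same way. The promoters of Gclc, Gsr, Hmox1, Msra, Prdx6 and Sod3 were not used here.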

Additional observations from a re-analysis of the deposited data

How the results depend on the processing

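The counts of called genes depended on the test and on control 5. At an adjusted p under 0.05, DESeq2 gave 6 of the 36 genes and 1516 of all genes in place of 0, and leaving out each library in turn gave 0 to 26 of the 36 and 0 to 7745 of all genes, the highest counts without control 5. At an unadjusted p under 0.05 the count of 11 (30.6%, beside 17.5% of all genes) became 6 with library totals and 4 with the hepatocyte score (11.1%, beside 6.96% of all genes). It was 0 to 27 when 1 library was left out, with 0 without GOx-DOX-LGP tumor 2, 1 without GOx-DOX-LGP tumor 5, 2 without GOx-DOX-LGP tumor 1, 4 without control 7 and 5 without control 6. The count without overlap, 4 with all libraries (11.1%, beside 17.2% of all genes), was 4 to 30, with 7 without GOx-DOX-LGP tumor 2 and 30 without control 5. Groups separate more easily when 1 of them holds 2 libraries, and the shares of all genes in these fits are not given here. These counts are therefore not a result about the 36 genes. The median log2 fold change of the 36 genes, -0.74, became 0.0114 with library totals, -0.0536 with the hepatocyte score and 0.23 without controls 6 and 7, and lay between -1.04 and -0.36 when 1 library was left out.

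Without controls 6 and 7, 27 log2 fold changes turned, to -0.20 for Nfe2l2, 0.44 for Keap1, -0.44 for Slc7a11, 0.29 for Gclm, 0.12 for Gss, 0.68 for Blvrb, 0.0097 for Nqo1, -0.43 for Abcc4, 0.23 for Txn2, 0.44 for Txnrd2, 0.019 for Srxn1, 0.48 for Sod1, 0.32 for Sod2, 0.12 for Cat, 0.52 for Gpx1, 0.60 for Gpx3, 0.40 for Gpx4, -0.0188 for Gpx8, 0.24 for Prdx1, 0.17 for Prdx2, 0.34 for Prdx3, 0.27 for Prdx4, 0.23 for Prdx6, 0.93 for Glrx, 0.18 for Glrx2, 0.41 for Msra and 0.30 for Msrb1. With library totals, 9 turned, to 0.45 for Keap1, 0.0849 for Gsr, 0.0269 for Txn2, 0.0331 for Txnrd1, 0.41 for Srxn1, 0.51 for Gpx3, 0.51 for Gpx4, 0.42 for Prdx2 and 0.23 for Glrx2. With the upper quartile, 5 turned, to 0.0082 for Keap1, 0.0265 for Srxn1, 0.0951 for Gpx3, 0.0876 for Gpx4 and 0.0205 for Prdx2. With the hepatocyte score, 7 turned, to -0.0668 for Nfe2l2, 0.23 for Keap1, 0.16 for Blvrb, 0.27 for Gpx3, 0.22 for Gpx4, 0.053 for Prdx2 and 0.42 for Glrx. Prdx5 turned to -0.0006 with DESeq2 and -0.0011 with DESeq2 size factors. Leaving out 1 library gave -0.0744 to 0.15 for Prdx5, -0.75 to 0.43 for Gpx3 and -0.29 to 0.0064 for Gpx4. The sign was kept in every fit for 6 genes, Gclc, Hmox1, Osgin1, Txn1, Sod3 and Gpx7. With the fit without controls 6 and 7 left aside, it was kept for 23 genes, these 6 included. The cause of these differences was not tested.

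No paired analysis was made, because the labels do not pair the libraries. The groups share only 1 replicate number (5), which the labels do not describe as a pair. The hepatocyte score was computed from the same libraries it adjusts, and with control 5 as the only control the spread is that of the GOx-DOX-LGP tumors alone.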
